A study of Mus musculus with 12 samples.

Results

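The lysyl oxidases of the mouse are 5 genes, Lox, Loxl1, Loxl2, Loxl3 and Loxl4, taken by symbol from the 52654 genes whose counts were complete in every library. Of the 5 genes, 4 passed the low-count filter and were among the 13340 genes tested; Loxl2 did not. RNA was sequenced from MC3T3-E1 subclone 14 cells, a single clone of a preosteoblast line derived from mouse calvaria, grown on titanium discs in medium made osteogenic by ascorbic acid (5 µg/mL) and β-glycerophosphate (7 mM). The 4 groups of 3 libraries were isolated cells on control titanium, isolated cells on titanium with nanotopography, and cells on each surface in co-culture with osteoclasts. Osteoclasts had been made from the macrophage line RAW 264.7 with 50 ng/mL RANKL, the cytokine that drives osteoclast formation. They sat in inserts with pores of 0.4 µm above the osteoblasts for the last 2 of 7 days, after 5 days apart. Because the isolated cells have no record of an insert or of RANKL, effects of the osteoclasts, the cytokine, the insert and the shared medium cannot be told apart. The series calls the 3 libraries of a group biological triplicates. Nothing more is said of separate cultures, and p-values measure only the spread between these libraries.

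Lysyl oxidases are secreted amine oxidases that depend on copper and on a quinone cofactor formed from their own residues. They oxidise lysine and hydroxylysine side chains of collagen and elastin to aldehydes, which then condense into the covalent cross-links that make bone matrix and elastic fibres insoluble and stiff. Lox and Loxl1 are made with a propeptide that proteases of the BMP-1 family remove, whereas Loxl2, Loxl3 and Loxl4 carry scavenger receptor cysteine-rich domains before the shared catalytic domain. Bone collagen in osteoblast cultures is cross-linked by this route.

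In mm10 with GENCODE M21, Lox lies at chr18:52516067-52529867 on the minus strand and Loxl1 at chr9:58287738-58313186 on the minus strand. Loxl2 lies at chr14:69609068-69695834 and Loxl3 at chr6:83034173-83052562, both on the plus strand, and Loxl4 at chr19:42593982-42612813 on the minus strand. The longest transcripts of Lox and Loxl1 have 7 exons each, and those of Loxl2, Loxl3 and Loxl4 have 14, 14 and 15. The base composition of the transcripts differed widely. GC content was 43.9% for Lox, 51.7% for Loxl2, 53.4% for Loxl3, 56.6% for Loxl4 and 61.0% for Loxl1, against a median of 49.0% over tested genes. Coding sequence differed less, from 56.3% for Loxl2 to 64.6% for Loxl1. The 3′ untranslated region set Lox apart: it took 66.7% of the transcript at a GC content of 35.7%, while that of Loxl1 took 35.6% at 53.6%. The longest run of bases shared exactly by any pair of these transcripts was 32, between Lox and Loxl1. The read length is not given in the sources used here, so reads shared between paralogs were not assessed. The 3′ end of Loxl3 overlaps the protease gene Htra2 on the other strand over 1297 bases. Lox overlaps AC161119.1 on the other strand over 1207 bases, and Loxl2 overlaps Gm27177 and Gm37513 over 74219 and 2268 bases. These are overlaps of whole genes, introns included. Whether reads were counted by strand is not given in the sources used here.

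The libraries held between 5866842 and 9207831 counts each. Mitochondrial rRNA took 6.70 to 9.80% of counts in isolated cells on control titanium, 4.52 to 6.35% in isolated cells on nanotopography and, with osteoclasts, 6.15 to 6.73% on control titanium and 8.66 to 15.8% on nanotopography. The rRNA-like genes Gm26917 and Gm42418 took 2.77 to 5.46%, 3.66 to 8.33%, 1.52 to 2.08% and 0.350 to 0.80% in the same order. Both measures moved with the groups. A fit without mitochondrially encoded and rRNA-like genes is among the alternatives, and their part in the results was otherwise not tested. Log2 fold changes followed the GC content of genes in comparisons that involve nanotopography. With osteoclasts on nanotopography, the median was 1.01 over the 1002 tested genes at or under 40% GC and -1.34 over the 488 genes over 60%, against -0.25 and -0.19 on control titanium. Log2 fold changes of the lysyl oxidases are therefore also given GC-adjusted, that is, refitted after each library's own trend with GC content and transcript length was removed. The cells had the marker transcripts of osteoblasts, with all 10 listed markers detected in every group. They summed to 82895 to 96456 CPM (a library's counts scaled to a common total) in isolated cells on control titanium, 84594 to 89903 in isolated cells on nanotopography and, with osteoclasts, 73804 to 85709 on control titanium and 44496 to 56350 on nanotopography, below every library of the other groups. Most of each sum was Col1a1 (means of 45093, 44450, 39099 and 23634 CPM in the same order) and Col1a2. Spp1 had 209, 131, 334 and 456 CPM, highest in co-culture on nanotopography. Runx2 had 365, 330, 277 and 342 CPM, so the osteoblast list did not move as a whole. The 12 macrophage markers summed to 4.60 to 8.23 CPM per library in isolated cells on control titanium, 4.73 to 6.51 in isolated cells on nanotopography and, with osteoclasts, 5.76 to 11.4 on control titanium and 12.8 to 38.2 on nanotopography. Of these, Ptprc, Adgre1, Tyrobp, Itgam and Cd53 had 0 counts in isolated cells, whereas Csf1r had 51 and 38 counts there and Lyz2 31 and 17, and Adgre1 and Itgam had 0 counts in co-culture on control titanium. The 10 osteoclast markers summed to 289 to 303, 300.4 to 316, 349 to 355 and 298 to 384 CPM in the same order, mostly from Ctsk, Itgb3 and Nfatc1, which were also detected in isolated cells. Atp6v0d2 had 0, 0, 7 and 73 counts per group, Dcstamp 0, 0, 6 and 26, and Acp5 2, 2, 11 and 33, most in co-culture on nanotopography, while Calcr had 0 counts in every group. The 5 markers of fibroblasts or myofibroblasts summed to 650 to 957, 860 to 1072, 1572 to 1765 and 1103 to 1537 CPM, with Dpt at 0 counts in isolated cells on control titanium. Most of that sum was Acta2 (means of 598, 803, 1473 and 1137 CPM), and Tagln had 23.2, 29.1, 44.4 and 29.6 CPM. Pdgfra had 161, 133, 127 and 146 CPM and Thy1 4.46, 5.06, 4.54 and 3.99 CPM, so the list did not move as a whole. The 4 chondrocyte markers summed to 1407 to 1528, 1586 to 1630, 1071 to 1309 and 520 to 678 CPM, lower with osteoclasts on both surfaces. Most of that sum was Col2a1 (means of 1203, 1315, 986 and 426 CPM), while Acan had 3, 1, 1 and 1 counts. The part of these transcripts in the lysyl oxidase values was not tested. In bulk RNA, fewer cells of a type and less RNA per cell cannot be told apart.

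Lox, the founding member and the main lysyl oxidase of fibrillar collagen, was by far the most abundant. It stood at 845, 812 and 716 CPM in isolated cells on control titanium, at 632, 755 and 716 CPM in isolated cells on nanotopography, at 658, 607 and 739 CPM in co-culture on control titanium and at 887, 749 and 804 CPM in co-culture on nanotopography, from 3752 to 6967 counts per library. The groups overlapped except that all 3 co-culture libraries on nanotopography were above all 3 on control titanium. Its mean CPM ranked 91 among the 11049 tested protein-coding genes.

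Loxl4, a member with scavenger receptor domains, came next. It stood at 168, 185 and 194 CPM in isolated cells on control titanium, at 133, 150 and 133 CPM in isolated cells on nanotopography, at 356, 366 and 299 CPM in co-culture on control titanium and at 175, 181 and 164 CPM in co-culture on nanotopography, from 783 to 3296 counts. The 3 co-culture libraries on control titanium stood above all 9 others, and the isolated cells on nanotopography below all 9 others. Co-culture on nanotopography overlapped isolated cells on control titanium. Its rank was 623.

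Because Loxl4 is the member whose level was higher with osteoclasts on both surfaces, its promoter window from 250 bases before to 50 bases after the RefSeq start (GRCm38.p6, chr19:42612757-42613056, minus strand) is shown. The RefSeq promoter table matched 1 of the 5 genes; Lox, Loxl1, Loxl2 and Loxl3 were not matched. Capitals mark matches to GGGCGG (the box of Sp1 and KLF factors), CAGAC (a SMAD box) and GCGTG (a hypoxia response core, here on the other strand as CACGC).

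Loxl4 promoter: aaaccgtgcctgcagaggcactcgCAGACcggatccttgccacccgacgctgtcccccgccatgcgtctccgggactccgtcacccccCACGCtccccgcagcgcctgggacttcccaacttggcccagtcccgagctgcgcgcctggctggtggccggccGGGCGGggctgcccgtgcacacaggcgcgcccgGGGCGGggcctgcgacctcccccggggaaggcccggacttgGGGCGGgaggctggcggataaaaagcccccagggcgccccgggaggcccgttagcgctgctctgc

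The window has a GC content of 75% with 32 CpG dinucleotides, and 3.91% of the 32851 promoter windows reach that GC content. The median over all windows is 52.7%, and the shares below were not taken among windows of like GC content. Both strands were searched. GGGCGG matched 3 times and occurs in 35.7% of all windows. CAGAC matched 1 time and occurs in 49.6%, and GCGTG matched 1 time and occurs in 32.4%. These letters held no match to TATAAA, found in 13.6% of windows, to CCAAT, found in 37.4%, or to the hypoxia response core ACGTG, found in 19.6%. They also held none to the AP-1 site TGANTCA, found in 7.81%, to the antioxidant response core TGACNNNGC, found in 12.4%, or to the RUNX site TGTGGT, found in 16.8%. The matches do not overlap each other and are a description of the letters only.

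Loxl3, which also has scavenger receptor domains, was lower still. It stood at 41.5, 49.0 and 56.9 CPM in isolated cells on control titanium, at 60.5, 40.6 and 63.0 CPM in isolated cells on nanotopography, at 47.7, 46.4 and 50.6 CPM in co-culture on control titanium and at 19.2, 25.2 and 30.0 CPM in co-culture on nanotopography, from 135 to 441 counts. The first 3 of these groups overlapped each other, and co-culture on nanotopography lay below all of them.

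Loxl1, the member tied to elastic fibres, was scarce. It stood at 11.5, 9.21 and 8.24 CPM in isolated cells on control titanium, at 13.1, 11.0 and 14.8 CPM in isolated cells on nanotopography, at 4.87, 6.29 and 5.58 CPM in co-culture on control titanium and at 2.98, 3.94 and 3.80 CPM in co-culture on nanotopography, from 21 to 88 counts. All isolated libraries stood above all co-culture libraries. The isolated groups overlapped each other, and the co-culture groups did not. Loxl2, which also acts on basement membrane collagen, was at the edge of detection with 39 counts over all 12 libraries. Its groups held 10, 9, 10 and 10 counts in the same order. Single libraries held from 0 to 8 counts. The 0 in replicate 3 of co-culture on nanotopography allows up to 0.456 CPM from a limit of 3 counts, for counting error only. Because genes on the other strand overlap Loxl2, its few counts cannot be told apart from reads left uncounted.

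**Figure D1:**
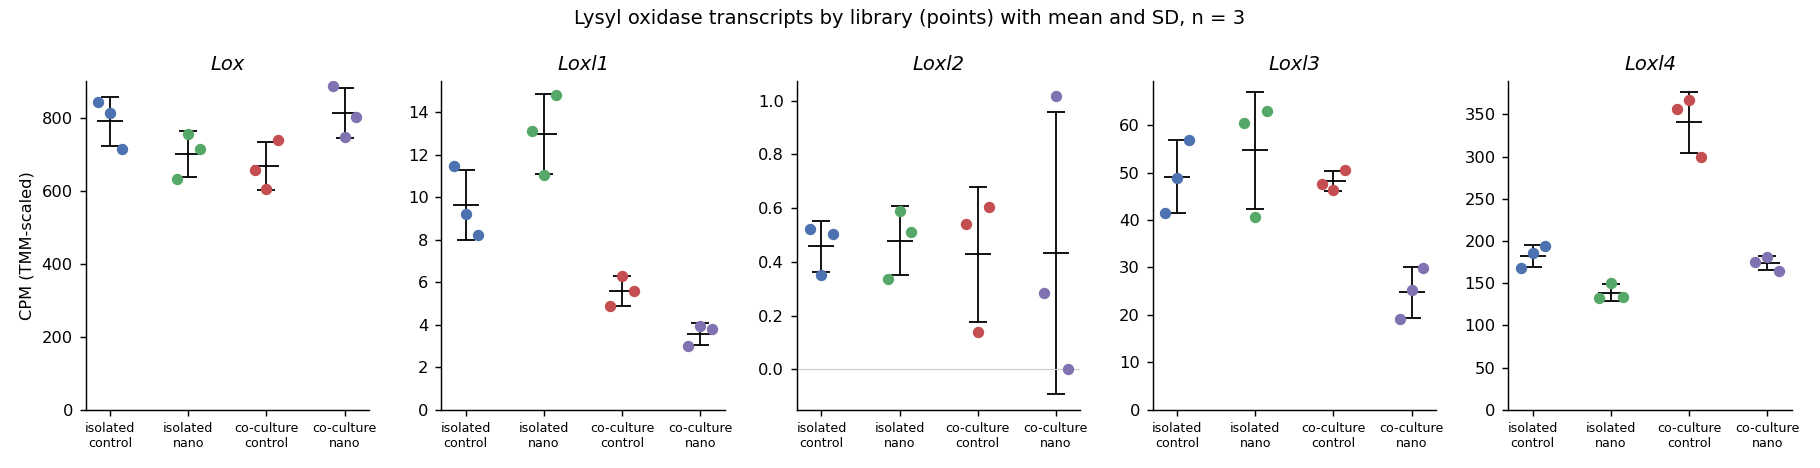
CPM (TMM-scaled, linear axes, 1 panel per gene) of the 5 lysyl oxidase genes in each library (points), with the mean and SD of the 3 libraries per group. Loxl4 is highest in co-culture on control titanium (299 to 366 CPM), Loxl1 is lower in both co-culture groups, and Loxl3 is lowest in co-culture on nanotopography (19.2 to 30.0 CPM); the axis of Loxl2 starts below 0 to show the SD.

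Set on one scale by dividing CPM by the kilobases of exon of each gene, Lox made up most of the lysyl oxidase transcript in every library. In isolated cells on control titanium, the levels per kilobase were 166 ± 14.1 for Lox, 43.3 ± 3.08 for Loxl4, 10.7 ± 1.67 for Loxl3, 2.93 ± 0.504 for Loxl1 and 0.0849 ± 0.0175 for Loxl2 (CPM per kb, mean ± SD, n = 3). The order Lox, Loxl4, Loxl3, Loxl1, Loxl2 held in each of the 12 libraries, with no overlap between neighbours in a group. Lox took 74.3 ± 3.03% of the summed level per kilobase in isolated cells on control titanium, 74.9 ± 1.81% in isolated cells on nanotopography, but 59.9 ± 4.45% in co-culture on control titanium and 78.0 ± 2.06% in co-culture on nanotopography (mean ± SD, n = 3). The share of Loxl4 was 19.5 ± 2.22%, 16.9 ± 0.884%, 34.8 ± 4.51% and 18.9 ± 1.64% in the same order. Without GC adjustment, co-culture on control titanium thus stood apart, with the lowest share of Lox and the highest of Loxl4. With GC-adjusted levels, the share of Loxl4 was 18.9 ± 0.676%, 12.9 ± 2.09%, 32.5 ± 5.75% and 27.3 ± 2.78%, so that both co-culture groups lay above both isolated groups. The GC-adjusted share of Lox was 75.1 ± 1.07%, 80.8 ± 1.26%, 62.5 ± 5.89% and 68.7 ± 2.20%, with both co-culture groups below both isolated groups. For both genes the co-culture groups then overlapped each other. The summed level differed less between groups than the shares, at 223 ± 10.3, 196 ± 13.0, 233 ± 6.32 and 218 ± 13.0 CPM per kb.

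**Figure D2:**
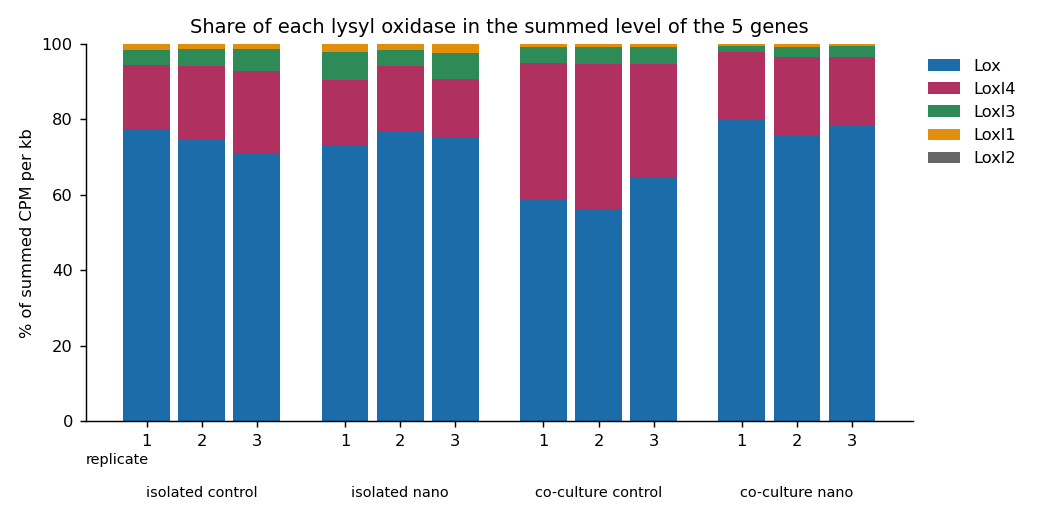
Share of each lysyl oxidase gene in the summed CPM per kilobase of exon of the 5 genes (stacked bars from 0 to 100%, 1 bar per library, 3 libraries per group). Lox is the largest part everywhere, and Loxl4 takes 29.8 to 38.5% in co-culture on control titanium against 15.8 to 21.8% in the other 9 libraries; Loxl2 is too small to see.

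With osteoclasts on control titanium, Loxl4 rose and Loxl1 fell while Lox and Loxl3 did not pass the test. The comparison asks how sharing medium with osteoclasts changes osteoblasts on a plain surface. Loxl4 went from 182 ± 13.0 to 341 ± 36.4 CPM (mean ± SD, n = 3), a 1.87-fold rise with a log2 fold change of 0.90 ± 0.11 (SE; edgeR quasi-likelihood test, Benjamini-Hochberg adjusted p = 1.39e-05; GC-adjusted 0.85 ± 0.12, adjusted p = 4.09e-05). Loxl1 went from 9.65 ± 1.66 to 5.58 ± 0.712 CPM, a log2 fold change of -0.80 ± 0.20 (adjusted p = 0.00882; GC-adjusted -0.75, adjusted p = 0.00453). In both genes the groups did not overlap. The call for Loxl1 was lost without replicate 1 of either group, at -0.69 without that of co-culture on control titanium (adjusted p = 0.0534) and -0.66 without that of isolated cells (adjusted p = 0.0664).

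Lox had a log2 fold change of -0.24 ± 0.11 in the same comparison, with a 95% interval of -0.47 to -0.02 before adjustment over all genes (adjusted p = 0.124; GC-adjusted -0.19, adjusted p = 0.0796). Loxl3 had -0.02 ± 0.17, with an interval of -0.38 to 0.33 (adjusted p = 0.943; GC-adjusted -0.10, adjusted p = 0.595). A change of Loxl3 within that interval is not excluded. Of the 4 tested lysyl oxidases, 2 were called with and without GC adjustment, where 19.8% of all tested genes were called (11.0% higher and 8.76% lower) and 27.0% GC-adjusted (15.2% higher and 11.8% lower). Groups did not overlap for 1 member in the higher and 1 in the lower direction, where 18.8% of all tested genes did not overlap upward and 17.3% downward.

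With osteoclasts on nanotopography, Loxl1 and Loxl3 fell and Loxl4 rose. The comparison asks the same question on the modified surface. Loxl1 went from 13.0 ± 1.89 to 3.58 ± 0.521 CPM, a log2 fold change of -1.85 ± 0.21 (adjusted p = 1.57e-06). GC-adjusted, it was -0.70 ± 0.20 (adjusted p = 0.00922), close to the value on control titanium. Loxl3 went from 54.7 ± 12.3 to 24.8 ± 5.42 CPM, a log2 fold change of -1.14 ± 0.18 (adjusted p = 3.51e-05; GC-adjusted -0.74 ± 0.14, adjusted p = 1.54e-04). The overlapping gene Htra2 had -1.59 ± 0.20 (adjusted p = 4.12e-06; GC-adjusted -0.47, adjusted p = 0.0467), with 954 counts over all libraries against 3720 for Loxl3. How many reads fell in the shared bases was not tested.

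Loxl4 went from 139 ± 10.03 to 174 ± 8.54 CPM, a 1.25-fold rise with a log2 fold change of 0.32 ± 0.11 (adjusted p = 0.0145), and the groups did not overlap. The GC-adjusted value was larger, at 1.03 ± 0.12 (adjusted p = 3.88e-06). Without replicate 1 or replicate 3 of isolated cells on nanotopography the unadjusted call was lost (0.29 and 0.28, adjusted p = 0.0616 and 0.0662). Lox changed direction with the adjustment. It had 0.21 ± 0.11 (adjusted p = 0.0989, 95% interval -0.01 to 0.44), and was called higher without replicate 2 of co-culture or of isolated cells on nanotopography (0.29 each, adjusted p = 0.048 and 0.0405) or with protein-coding genes only (0.26, adjusted p = 0.0421). GC-adjusted, it fell by 0.30 on the log2 scale (SE 0.08, adjusted p = 0.00517), from 822 ± 44.9 to 669 ± 9.85 GC-adjusted CPM. Of the 4 tested members, 3 were called, and 4 were called GC-adjusted; of all tested genes, 59.1% were called (28.7% higher and 30.4% lower) and 39.6% GC-adjusted (18.9% higher and 20.6% lower). The groups did not overlap for 1 member in the higher and 2 in the lower direction, where 31.4% of all tested genes did not overlap upward and 32.9% downward.

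**Figure D3:**
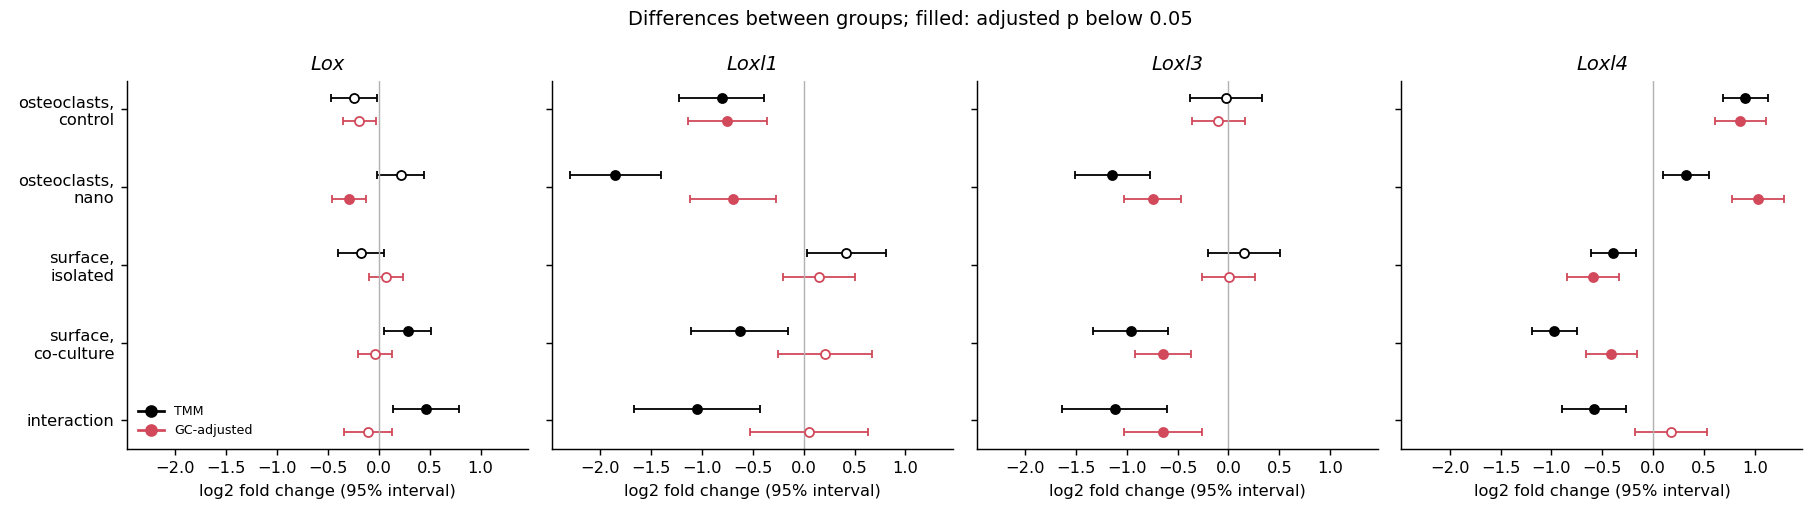
Log2 fold change with its 95% interval for the 4 tested lysyl oxidases (1 panel each) in 5 comparisons, with TMM scaling (black) and GC-adjusted (red); filled points have an adjusted p below 0.05. Loxl4 is above 0 with osteoclasts on both surfaces and below 0 for the surface in both cultures under both fits, whereas the interaction of Lox, Loxl1 and Loxl4 moves across 0 with the adjustment and that of Loxl3 stays below 0.

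In isolated cells, nanotopography went with lower Loxl4 and no other call among the lysyl oxidases. Loxl4 had a log2 fold change of -0.39 ± 0.11 (182 ± 13.0 against 139 ± 10.03 CPM; adjusted p = 0.0304; GC-adjusted -0.59 ± 0.12, adjusted p = 0.0109), and the groups did not overlap. The call was lost without replicate 1 or 2 of isolated cells on control titanium and without replicate 1 or 3 of isolated cells on nanotopography, at -0.36 to -0.44 with adjusted p from 0.096 to 0.156. Those same omissions took the count of called genes from 1347 to 2, 46, 67 and 3. Loxl1 had 0.42 ± 0.19 (adjusted p = 0.14; GC-adjusted 0.15, adjusted p = 0.664). Lox had -0.17 ± 0.11 (adjusted p = 0.292; 95% interval -0.40 to 0.05; GC-adjusted 0.07) and Loxl3 0.16 ± 0.17 (adjusted p = 0.561; interval -0.20 to 0.51; GC-adjusted 0.00082). Thus 1 of 4 tested members was called, where 10.1% of all tested genes were called (4.48% higher and 5.62% lower) and 5.67% GC-adjusted (3.72% higher and 1.96% lower). Groups did not overlap for 0 members upward and 1 downward, against 15.3% and 14.5% of all tested genes.

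In co-culture, nanotopography went with lower Loxl3 and Loxl4. Loxl4 went from 341 ± 36.4 CPM on control titanium to 174 ± 8.54 CPM, a log2 fold change of -0.97 ± 0.11 (adjusted p = 1.29e-05; GC-adjusted -0.41 ± 0.12, adjusted p = 0.0235). Loxl3 went from 48.2 ± 2.17 to 24.8 ± 5.42 CPM, a log2 fold change of -0.96 ± 0.18 (adjusted p = 6.16e-04; GC-adjusted -0.64 ± 0.13, adjusted p = 0.00249). For both genes the groups did not overlap without GC adjustment, and both calls held under every alternative run. In GC-adjusted CPM, Loxl4 overlapped, at 260 to 348 on control titanium and 210 to 272 on nanotopography.

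Loxl1 was lower at -0.63 ± 0.23 (adjusted p = 0.0352) and Lox higher at 0.28 ± 0.11 (adjusted p = 0.0442) in the same comparison. Neither call held GC-adjusted, at 0.21 ± 0.22 for Loxl1 (adjusted p = 0.565) and -0.04 ± 0.08 for Lox (adjusted p = 0.804). The call for Loxl1 was also lost without replicate 1 or 3 of co-culture on nanotopography (-0.51 and -0.67, adjusted p = 0.143 and 0.0591) or replicate 2 or 3 of co-culture on control titanium (-0.54 and -0.63, adjusted p = 0.12 and 0.0699), and by DESeq2, limma-voom, a fit of only the groups compared and no low-count filter (adjusted p = 0.0623, 0.0538, 0.0586 and 0.0654). The call for Lox was lost without replicate 1 or 3 of co-culture on nanotopography (0.22 and 0.29, adjusted p = 0.169 and 0.0892) or replicate 1 or 2 of co-culture on control titanium (0.27 and 0.22, adjusted p = 0.0997 and 0.186), and with no low-count filter (adjusted p = 0.0638). The count was 4 of 4 tested members, and 2 of 4 GC-adjusted, where 42.0% of all tested genes were called (18.6% higher and 23.4% lower) and 17.7% GC-adjusted (7.05% higher and 10.6% lower). Groups did not overlap for 1 member upward and 3 downward, against 24.9% and 28.4% of all tested genes.

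The test of the difference between the co-culture effects on the 2 surfaces, the interaction, called all 4 tested lysyl oxidases, and GC-adjusted only Loxl3. Loxl3 had -1.12 ± 0.24 (adjusted p = 0.00153) and GC-adjusted -0.64 ± 0.18 (adjusted p = 0.0176), and its call held under all 23 alternatives, with adjusted p up to 0.0176. Loxl1 had -1.05 ± 0.29 (adjusted p = 0.00772) but 0.05 ± 0.28 GC-adjusted (adjusted p = 0.915). Loxl4 had -0.58 ± 0.15 (adjusted p = 0.00441) but 0.17 ± 0.17 GC-adjusted (adjusted p = 0.5). Lox had 0.46 ± 0.15 (adjusted p = 0.021) but -0.11 ± 0.11 GC-adjusted (adjusted p = 0.545). The call for Lox was lost without replicate 2 of co-culture on control titanium, replicate 1 of co-culture on nanotopography, replicate 1 or 2 of isolated cells on control titanium or replicate 1 of isolated cells on nanotopography, at 0.38 to 0.43 with adjusted p from 0.0541 to 0.0711. Of all tested genes, 47.9% were called for the interaction (22.5% higher and 25.4% lower) and 20.9% GC-adjusted (8.11% higher and 12.8% lower). Without adjustment, Lox at 43.9% GC was above 0 and the other 3 members, at 53.4 to 61.0% GC, were below 0. Tested genes of 40 to 45% GC, the bin of Lox, had a median of 0.71. The median was -0.46 at 50 to 55% GC, the bin of Loxl3, and -0.87 at 55 to 60%, the bin of Loxl4. Over 60% GC, the bin of Loxl1, it was -1.19.

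**Figure D4:**
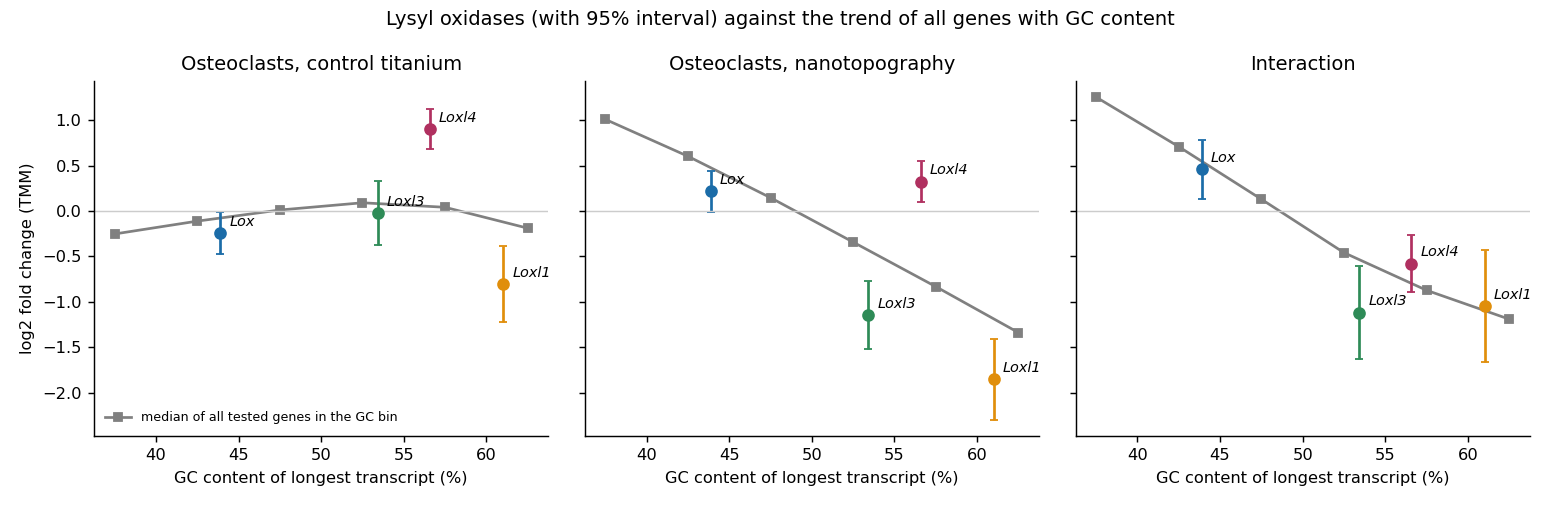
Log2 fold change with TMM scaling (linear axis) against the GC content of the longest transcript for the 4 tested lysyl oxidases, with 95% intervals, in 3 comparisons; squares are the medians of all tested genes in bins of GC content, drawn at the middle of each bin of 5 percentage points and, for the open end bins, at 37.5 and 62.5%. With osteoclasts on nanotopography and in the interaction the medians run from above 1 to below -1. In the middle panel Loxl4 lies above them and Lox, Loxl1 and Loxl3 below them.

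The lysyl oxidases did not move as one over the 12 libraries. Pearson correlations of log2 CPM, given as descriptions over libraries that share the GC trend, were 0.78 between Loxl1 and Loxl3, 0.07 between Loxl3 and Loxl4, -0.26 between Lox and Loxl1, -0.42 between Lox and Loxl4, -0.43 between Loxl1 and Loxl4 and -0.61 between Lox and Loxl3. Among 9372 other protein-coding genes with a mean of at least 5 CPM, those most like Lox were Cbfb (r = 0.98), which encodes the partner subunit of RUNX factors, Rhobtb3 (0.97) and Gnaq (0.96), a G protein subunit. Their GC contents, at 42.5, 43.1 and 46.9%, lay near that of Lox. Most like Loxl1 were Scara3, Irf2bp1 and Preb (0.98 each), and most like Loxl3 were Npdc1 (0.99), Cc2d1a (0.98) and Ctdsp1 (0.98), all at 52.0 to 63.6% GC. Most like Loxl4 were Prss35 (0.98), a secreted serine protease homologue, Nfya (0.94), a subunit of the CCAAT-binding factor, and Bnip3 (0.93), a mitophagy receptor gene and a known target of hypoxia-inducible factor. Unlike Loxl4 at 56.6% GC, these genes were at 46.9, 50.9 and 41.6%. With osteoclasts, Bnip3 was called higher on control titanium and on nanotopography without adjustment (0.61 and 0.54). GC-adjusted, it had 0.77 and -0.07, the latter not called. Nfya had 0.34, called, and 0.15, not called, on the same surfaces, and was called higher on both GC-adjusted (0.27 and 0.34). Prss35 was called higher with osteoclasts on control titanium at 0.53 ± 0.09 (adjusted p = 6.30e-04; GC-adjusted 0.52), but had 0.07 ± 0.09 on nanotopography (adjusted p = 0.516; GC-adjusted -0.09).

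The substrates of lysyl oxidases, fibrillar collagens and elastin, were tested for 11 of 12 genes. Elastin (Eln) had 0 counts in all 12 libraries, as did the microfibril gene Mfap2, which allows up to 0.0352 CPM over all libraries from 3 counts, for counting error only. How the counting treated strand and overlapping genes is not given in the sources used here, so these zeros cannot be told apart from reads left uncounted, and the limit is no bound on expression. For this list and those that follow, 11.0% of all tested genes were called higher and 8.76% lower with osteoclasts on control titanium, and 28.7% and 30.4% on nanotopography (GC-adjusted 18.9% and 20.6%). The genes named from these lists that were called with osteoclasts on control titanium were called in the same direction GC-adjusted. With osteoclasts on control titanium, 2 substrates were higher and 2 lower (median log2 fold change -0.09, against -0.02 over all tested genes). Col24a1, a minor fibrillar collagen of bone, fell from 109 ± 14.0 to 49.3 ± 6.19 CPM (-1.15 ± 0.12, adjusted p = 2.99e-06), and Col11a2 by 0.87 on the log2 scale (adjusted p = 3.49e-04). Col5a3 and Col5a1, whose chains join type V collagen, rose by 0.70 and 0.46 (adjusted p = 0.00268 and 0.0113). With osteoclasts on nanotopography, 0 were higher and 7 lower (median -0.71, against -0.0024 over all tested genes), and GC-adjusted 2 were higher and 6 lower (median -0.22). Col2a1 and Col11a2, collagens best known from cartilage, had -1.67 and -1.69 (GC-adjusted -0.49 and -0.50), and Col1a2, the partner chain of Col1a1 in bone collagen, had -0.88 (GC-adjusted -0.34), all called under both fits. Col1a1 itself had -0.95 ± 0.11 there (adjusted p = 2.82e-06), but -0.14 GC-adjusted (adjusted p = 0.188).

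Genes that activate lysyl oxidases or hold them in the matrix were tested for 19 of 26, with 5 higher and 2 lower with osteoclasts on control titanium (median 0.11) and 4 higher and 9 lower on nanotopography (median -0.46; GC-adjusted 6 and 6, median -0.05). Fn1, fibronectin, a scaffold for lysyl oxidase processing, rose from 9141 ± 332 to 19280 ± 1585 CPM on control titanium (1.08 ± 0.10, adjusted p = 9.00e-07) and by 0.89 on nanotopography (GC-adjusted 1.11). Fbln2, a fibulin of elastic fibres, rose by 0.97 on control titanium (adjusted p = 9.41e-06), where Thbs1, a thrombospondin, fell by 0.59 (adjusted p = 3.49e-04). Pcolce2, an enhancer of procollagen processing, was lower on both surfaces, at -0.83 and -1.36 (adjusted p = 2.24e-04 and 5.63e-07; GC-adjusted -0.84 and -1.64). Bmp1, the propeptide protease, was lower with osteoclasts on nanotopography at -1.42 ± 0.12 (adjusted p = 1.03e-07; GC-adjusted -0.78). The related proteases Tll1 and Tll2 did not pass the low-count filter, with 0 counts in each group. Postn, periostin, which helps Bmp1 act on lysyl oxidase, was higher there at 0.79 (adjusted p = 2.34e-04) and lower GC-adjusted at -0.40 (adjusted p = 8.74e-04).

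Genes of lysine hydroxylation, the step that makes the hydroxylysines of bone cross-links, and of its helpers were tested for 10 of 11. Not all of them encode lysyl hydroxylases. With osteoclasts, 3 were higher and 2 lower on control titanium (median 0.09) and 1 was higher and 9 lower on nanotopography (median -0.70; GC-adjusted 3 and 4, median -0.13). Plod1, a lysyl hydroxylase of the collagen helix, rose by 0.68 on control titanium (adjusted p = 0.00187), as did P4hb, the disulfide isomerase subunit of prolyl hydroxylase, by 0.52 (adjusted p = 0.0082). P3h4, which assists lysine hydroxylation in the helix, had -0.53 there (adjusted p = 0.0123) and -1.33 on nanotopography (adjusted p = 8.19e-07; GC-adjusted -0.32). Its call on control titanium was lost without replicate 1 or 3 of co-culture (adjusted p = 0.069 and 0.0557) or replicate 3 of isolated cells (adjusted p = 0.051). Plod2, the hydroxylase of collagen telopeptides, rose on nanotopography from 183 ± 28.3 to 486 ± 85.3 CPM (1.41 ± 0.13, adjusted p = 2.21e-07; GC-adjusted 0.88). Serpinh1, the collagen chaperone, fell on nanotopography from 2994 ± 287 to 825 ± 117 CPM (-1.86 ± 0.13, adjusted p = 1.27e-08; GC-adjusted -1.08) and was also lower on control titanium at -0.44 (adjusted p = 0.0237). That last call was lost without replicate 1 or 2 of co-culture on control titanium (-0.31 and -0.42, adjusted p = 0.146 and 0.0927) or replicate 2 or 3 of isolated cells on control titanium (-0.45 and -0.37, adjusted p = 0.0693 and 0.0739).

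Copper supply genes, tested for 12 of 14, had 0 higher and 1 lower with osteoclasts on control titanium (median -0.08) and 3 higher and 4 lower on nanotopography (median -0.22; GC-adjusted 1 and 6, median -0.38). Without GC adjustment, the share called on nanotopography, 7 of 12, was near the 59.1% of all tested genes. GC-adjusted, the 1 higher and 6 lower of 12 compare with 18.9% higher and 20.6% lower of all tested genes. Slc31a2, a copper transporter gene, fell by 0.73 on control titanium (adjusted p = 4.65e-04). On nanotopography, Atp7a, the pump that loads secreted enzymes with copper, rose by 1.02 (adjusted p = 1.42e-05; GC-adjusted 0.57), and Atox1, the copper chaperone that serves it, had -1.97 (adjusted p = 5.77e-06; GC-adjusted -0.67). The metalloreductase genes Steap2 and Steap3 had 0.62 and -1.06 there (GC-adjusted -0.42 and -0.77). Of the other copper amine oxidases, Aoc3 alone was tested and rose with osteoclasts on both surfaces, from 3.38 ± 0.333 to 9.43 ± 1.02 CPM on control titanium (1.48 ± 0.20, adjusted p = 5.46e-05) and by 1.22 on nanotopography (adjusted p = 4.98e-05; GC-adjusted 1.56).

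Among 22 transcription factors and transducers described upstream of lysyl oxidase genes, all tested, 6 were higher and 1 lower with osteoclasts on control titanium (median 0.06), and 8 were higher and 8 lower on nanotopography (GC-adjusted 7 and 6). Hif1a, the oxygen-regulated factor, rose from 230 ± 20.0 to 350 ± 44.5 CPM on control titanium (0.61 ± 0.12, adjusted p = 0.00141) and by 1.27 on nanotopography (adjusted p = 1.76e-07; GC-adjusted 0.54). Srf, the serum response factor, rose by 0.54 on control titanium (adjusted p = 0.0107; GC-adjusted 0.75), a call lost without replicate 1 of isolated cells (adjusted p = 0.0525). On nanotopography Snai2 and Snai1, related zinc finger repressors, had 0.98 and -1.85 (GC-adjusted 0.46 and -0.66). Tgfb1, a growth factor known to induce Lox, fell by 0.70 on control titanium (adjusted p = 0.00411) and by 1.66 on nanotopography (adjusted p = 2.70e-07; GC-adjusted -1.28).

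For the surface, 10.1% of all tested genes were called in isolated cells and 42.0% in co-culture (GC-adjusted 5.67% and 17.7%). The substrates had 2 higher and 1 lower in isolated cells and 0 higher and 5 lower in co-culture (GC-adjusted 0 and 2, and 3 and 3). Lysine hydroxylation with its helpers had 2 higher and 1 lower, and 0 higher and 9 lower (GC-adjusted 2 and 1, and 0 and 3). In co-culture, Serpinh1 had -1.02 (adjusted p = 3.53e-05; GC-adjusted -0.43), Plod1 -0.92 (adjusted p = 1.14e-04; GC-adjusted -0.65) and Bmp1 -1.01 (adjusted p = 2.64e-05; GC-adjusted -0.51) on nanotopography against control titanium. Col2a1, Col5a1 and Col1a2 had -1.23, -0.89 and -0.77 in the same comparison (GC-adjusted -0.37, -0.45 and -0.34). These 6 genes were called lower under both fits, as were Loxl3 and Loxl4. Of the activating and anchoring genes, 3 were higher and 10 lower there (GC-adjusted 4 and 6). Fbn2 among them was called higher under both fits (0.31, GC-adjusted 0.36), a call lost in 2 of 6 fits with 1 library fewer. Col11a2, Plod3, P3h3, Postn, Steap2, Atox1 and Srf were called in co-culture only without adjustment. In isolated cells, P4hb and Ppib were called higher on nanotopography under both fits (0.51 and 0.46, GC-adjusted 0.33 and 0.39). Each of these 2 calls was lost in 4 of 6 fits with 1 library fewer. In isolated cells, Col24a1 had -0.67 (adjusted p = 0.00771; GC-adjusted -0.72) and Plod2 -0.68 (adjusted p = 0.0123; GC-adjusted -0.42) on nanotopography. Both calls were lost without replicate 1 or 2 on control titanium or replicate 3 on nanotopography (adjusted p from 0.0503 to 0.105), and that of Plod2 also without replicate 1 on nanotopography (adjusted p = 0.0777).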

How the data were processed

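The authors deposited a file of raw counts for each library, with reads counted by gene. The submitters' processing notes name mm10 and, without order or role, STAR 2.4, HTSeq, cutadapt, FastQC 0.63 and DESeq2; the annotation release and strand setting are not given in the sources used here. Because 11 of the 12 files break off inside a line, only the 52654 genes present in full in all were used (99.924% or more of any library's counts), and all were found in GENCODE M21 by identifier without version. In R 4.3.3 with edgeR 4.0.16, genes passing filterByExpr were scaled by TMM, and quasi-likelihood tests on 4 group means of all 12 libraries gave 5 contrasts, Benjamini-Hochberg adjusted over the 13340 genes tested and called below 0.05. The common dispersion was 0.0151. Standard errors are the absolute log2 fold change over the square root of F. CPM uses TMM-scaled totals (marker sums plain totals), log2 CPM a prior count of 2. GC-adjusted fits remove a loess trend (span 0.3) per library. Other fits used upper-quartile or RLE scaling, no filter or a stricter one, limma-voom (limma 3.58.1), DESeq2 1.42.0, gene subsets, only the groups compared, a replicate block, GC adjustment or 1 library fewer. Scripts were tested on simulated data. The members and lists were chosen with earlier results of these data known. Named are the 5 members, from each list up to 4 called genes of smallest p per comparison (2 per direction where both exist; for the surface comparisons a part of these), and per member the 3 genes of highest correlation; the genes with 0 counts were named after their values were seen.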

Additional observations from a re-analysis of the deposited data

Results flagged for a closer look

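The difference between the co-culture effects on the 2 surfaces passed the interaction test of edgeR for Lox (0.46, adjusted p = 0.021), Loxl1 (-1.05, adjusted p = 0.00772), Loxl3 (-1.12, adjusted p = 0.00153) and Loxl4 (-0.58, adjusted p = 0.00441), all on the log2 scale as nanotopography minus control titanium. GC-adjusted, it passed for Loxl3 (-0.64, adjusted p = 0.0176) and not for Lox (-0.11), Loxl1 (0.05) or Loxl4 (0.17).

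Of the substrates, the same difference was called for Col24a1 (0.44; GC-adjusted 0.53), Col2a1 (-1.40; GC-adjusted -0.29, not called) and Col5a1 (-1.22; GC-adjusted -0.57). The call for Col24a1 was lost without replicate 1 or 2 of co-culture on control titanium, 1 or 3 of co-culture on nanotopography, 1 or 2 of isolated cells on control titanium or 1 or 3 of isolated cells on nanotopography (0.35 to 0.45). Of genes that activate or anchor lysyl oxidases, it was called for Postn (0.95; GC-adjusted -0.44, called in the other direction), Emilin1 (-1.25; GC-adjusted -0.19, not called) and Bmp1 (-1.11; GC-adjusted -0.42). Of lysine hydroxylation and its helpers, it was called for Plod2 (1.01, GC-adjusted 0.40), Serpinh1 (-1.42, GC-adjusted -0.59) and Plod1 (-1.18, GC-adjusted -0.77).

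Of copper supply, it was called for Atp7a (0.80; GC-adjusted 0.32, not called), Steap2 (0.71; GC-adjusted -0.46, called in the other direction), Atox1 (-1.88; GC-adjusted -0.79) and Commd1 (-0.96; GC-adjusted -1.34). Of upstream factors, it was called for Tgfbr1 (1.06), Snai2 (0.87), Rela (-1.36) and Srf (-1.39), with GC-adjusted values of 0.12, 0.21, -0.34 and -0.07 that were not called.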

How the results depend on the processing

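Over 18 alternatives each, Loxl4 with osteoclasts on control titanium (0.84 to 1.00), Loxl1 and Loxl3 with osteoclasts on nanotopography (-1.94 to -0.70 and -1.30 to -0.74), and Loxl3 and Loxl4 for the surface in co-culture (-1.12 to -0.64 and -1.06 to -0.41) kept direction and call. GC adjustment, without and with the replicate block, turned Lox with osteoclasts on nanotopography (-0.30 and -0.29), for the surface in isolated cells (0.070 and 0.067) and in co-culture (-0.036 and -0.031) and for the interaction (-0.11 and -0.10). It turned Loxl1 in co-culture (0.21 and 0.21) and for the interaction (0.054 and 0.052), Loxl4 for the interaction (0.17 and 0.18) and, with the block, Loxl3 in isolated cells (-0.0061). It turned Postn and Steap2 with osteoclasts on nanotopography (-0.40 and -0.39, -0.42 and -0.42), in co-culture (-0.0024 and -0.0024, -0.14 and -0.14) and for the interaction (-0.44 and -0.44, -0.46 and -0.46), and, in co-culture, P3h3 (0.21 and 0.21) and Tgfbr1 (-0.015 and -0.014).

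Called lysyl oxidases GC-adjusted, without and with the block, were 2 and 2 in co-culture and 1 and 1 for the interaction, and 2 in co-culture with no low-count filter. Called genes GC-adjusted, without and with the block, were 757 and 587 in isolated cells, 2357 and 2098 in co-culture and 2789 and 2510 for the interaction, and 5081 with the block for osteoclasts on nanotopography. With no filter they were 2104 in isolated cells. Leaving out 1 library gave 1432 to 2979 genes and 1 to 2 lysyl oxidases for osteoclasts on control titanium (1494 and 1432 without replicates 1 and 2 of isolated cells, 1628 without replicate 2 of co-culture). It gave 2 to 2912 and 0 to 1 for the surface in isolated cells (2152 without replicate 3 on control titanium, 2912 without replicate 2 on nanotopography) and 3271 to 5829 and 2 to 4 in co-culture (3271 without replicate 1 on nanotopography), and -0.13 to 0.11 for Loxl3 with osteoclasts on control titanium. Whether the replicate numbers pair the libraries cannot be told from 3 libraries per group. Correlations of same-numbered deviations ran from -0.39 to 0.30, and those of different-numbered deviations from -0.43 to 0.40. The block alone took the call only of Lox in co-culture among the lysyl oxidases (adjusted p = 0.0613). The cause of these shifts was not tested.

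Chosen after the data were seen, lengths of the longest transcript gave Lox 73.0% of the summed level in isolated cells on nanotopography and Loxl4 18.4% there and 20.7% in co-culture on nanotopography; GC-adjusted levels gave Lox 80.8% and 68.7% and Loxl4 12.9% and 27.3% in these 2 groups. Few counts limit Loxl2: with no filter, its 95% interval with osteoclasts on control titanium was -1.66 to 1.49. Whether depth or reads left uncounted made them few was not tested.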
